A study of Mus musculus with 84 samples.

Results

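Voltage-gated calcium channels carry auxiliary subunits, and the 8 genes described here encode both main families of them: the alpha2delta subunits Cacna2d1, Cacna2d2, Cacna2d3 and Cacna2d4, and the beta subunits Cacnb1, Cacnb2, Cacnb3 and Cacnb4. They were chosen by name, without regard to their values, from the 19685 genes counted in each of 84 single mouse neurons. The neurons came from prefrontal cortex of untreated C57/BL6/N mice; each was recorded in an acute slice and its RNA collected by patch-clamp pipette and amplified by the aRNA procedure, a linear amplification by in vitro transcription. The titles mark 25 neurons with F and 59 with P. The series title speaks of fast-spiking and pyramidal cells, but no label assigns either name to a letter, so the letters alone are used here, as F cells and P cells. The labels give no age or sex and no animal, so how many mice stand behind each letter is unknown and each group counted as 1 sample: no p-value, standard error or test was made from cells.

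A high-voltage-activated calcium channel is built on a pore-forming alpha1 protein. Beta subunits sit inside the cell, bind the loop between the first and second repeats of the pore, help the channel reach the membrane and shift its gating. Alpha2delta subunits are large extracellular proteins anchored to the membrane. They raise the number of channels at the surface and at presynaptic terminals and bind thrombospondins. T-type channels can work without either family. The antiepileptic drugs gabapentin and pregabalin bind the products of Cacna2d1 and Cacna2d2.

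Depth was uneven. F libraries held 36594 to 12043599 counts (median 680044) and P libraries 19802 to 16251918 (median 2706396). In 16 F libraries, numbered 13 to 28, the same few genes recurred together with at least 2 counts each of Klhl18, Celsr1 and Pno1; these 16 held at most 2116359 counts, while the other 9 F libraries held 680044 to 12043599. F11 and F12 were the most alike pair of libraries. The labels also give 2 versions of the basecaller, the earlier for 3 F and 6 P cells (called the older batch) and the later for 22 F and 53 P cells (the newer batch), which is not a recorded date or run. Results are given with and without the 16 libraries where they differ. The letters were checked with markers: Gad1, which makes GABA, had a mean of 1460.3 CPM (counts per 1000000 counts of the cell) among F cells against 128 CPM among P cells, and Slc17a7, a vesicular glutamate transporter, 12.8 and 202 CPM. Summed GABAergic markers ran from 2.53 to 19199 CPM over F and from 0 to 11092 CPM over P cells, and summed glutamatergic markers from 0 to 1860 and from 0 to 6810 CPM. Cell by cell, with markers counted at 10 CPM or more, 18 F cells had more GABAergic and 41 P cells more glutamatergic markers. In 3 F cells (F13, F17, F18) glutamatergic markers outnumbered GABAergic ones, and 7 P cells (P3, P35, P44, P57, P60, P67, P75) had the reverse. The numbers were equal in 4 F and 11 P cells. Markers of other cells were present in both groups: summed astrocyte markers ran from 0 to 18170 CPM in F and from 0 to 100013 CPM in P cells, with Aldh1l1 at 0 in F. For oligodendrocyte markers the highest F and P sums were 3575 and 12420 CPM, for microglial markers 31384 and 16545 CPM and for endothelial markers 3156 and 3197 CPM, with Pecam1 at 0 in F; the lowest sums were 0. Of these lists, 6 of 8 measured astrocyte, 3 of 7 oligodendrocyte, 4 of 10 microglial and 2 of 3 endothelial markers had means at least 2-fold lower in F, and 1, 3, 3 and 1 were at least 2-fold higher. Over all 11324 measured genes, 46.4% were at least 2-fold lower and 18.5% at least 2-fold higher in F. The part of such RNA in the subunit values was not tested.

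All 8 genes had a count in at least 8 cells, the minimum for a gene to be called measured, and 5 had one in at least 21. Cacna2d2 and Cacnb1 had mean CPM at least 2-fold higher in F cells. Cacna2d1, Cacna2d3, Cacnb2, Cacnb3 and Cacnb4 were at least 2-fold lower in F cells, and Cacna2d4 differed by less than 2-fold. Over the 11324 measured genes, 18.5% were at least 2-fold higher in F, 46.4% at least 2-fold lower and 64.9% past 2-fold in either direction, so 2, 5 and 7 of 8 subunits are not read as a result about the family. Folds are log2((mean F + 1)/(mean P + 1)), with 1 CPM as pseudocount, which understates the change of genes at low levels. Their median was -1.25 over the 8 subunits, -1.05 over the alpha2delta and -2.08 over the beta genes, against -0.79 over all measured genes. What sets these genes apart from one another is which cells carry them and at what level, shown in the plot of every cell.

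**Figure D1:**
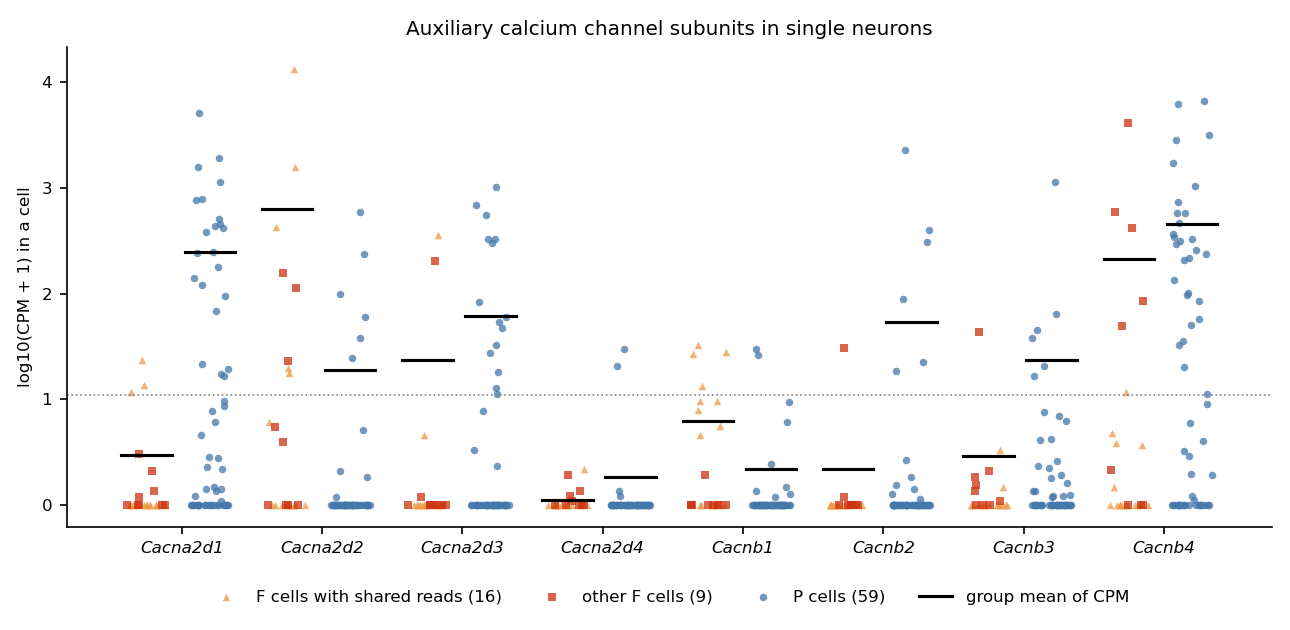
Level of each auxiliary subunit in each neuron, as log10(CPM + 1) on the vertical axis, with F cells split into the 16 libraries with shared reads (triangles) and the other 9 (squares), P cells as circles, and group means of CPM as bars. The dotted line is 10 CPM. Cacna2d1 stays at or below 22.6 CPM in F cells and reaches 5093 CPM in P cells, while the highest Cacna2d2 values are in F cells, and a few cells lie far above the others of their group.

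Cacna2d1, a gabapentin-binding subunit widely made in brain and muscle, was carried mainly by P cells. It lies on chromosome 5 (mm10, 15934691 to 16374511, plus strand; all gene positions are from GENCODE M21). F cells ran from 0 through a median of 0 to 22.6 CPM, and P cells from 0 through a median of 1.27 to 5093 CPM. The 3 highest F cells held 5 counts (F23), 5 counts (F18) and 1 count (F22), and all 3 are among the 16 libraries with shared reads. The highest P cells were P70 at 5093, P53 at 1936, P5 at 1569 and P33 at 1131 CPM. The ranges overlap at the bottom, but 0 of the 25 F and 16 of the 59 P cells reached 100 CPM. Means were 1.99 CPM (SD 5.37, 25 cells) and 249 CPM (SD 745, 59 cells), a log2 fold of -6.39. F cells held 33 counts in all and P cells 66249, a pooled P to F ratio of 426 (exact 95% interval 303 to 618). Intervals of pooled ratios cover counting error only, since the reads were amplified and carry no molecular identifiers. P cells were higher in 58.1% of the 1475 F-P cell pairs, F cells in 15.05%, and 26.8% were tied. Without P70, which held 34.7% of the P sum, the log2 fold was -5.80. It lay between -8.34 and -2.71 over the 14 alternatives tried.

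Cacna2d2 encodes the subunit lost in the ducky mouse, which has ataxia and absence seizures, and it showed the reverse pattern. It lies on chromosome 9 (107399612 to 107529343, plus strand). Its lowest, median and highest values over F cells were 0, 0 and 13467 CPM, and over P cells 0, 0 and 590 CPM. The F cells at 10 CPM or more were F22 at 13467, F14 at 1577, F15 at 430, F2 at 156, F7 at 112, F5 at 22, F24 at 18.9 and F16 at 16.7 CPM. The P cells were P22 at 590, P25 at 237, P3 at 98.7, P67 at 59.9, P26 at 36.7 and P2 at 23.5 CPM. Values overlap between the groups, with 2 F cells above every P cell. Means were 632 CPM (SD 2693) in F and 17.8 CPM (SD 83.2) in P cells, a log2 fold of 5.07, and F22 alone held 85.2% of the F sum. Without F22 the log2 fold was 2.39, and without P22, which held 56.1% of the P sum, it was 6.14. Without the 16 F libraries it was 0.85, under 2-fold, the mean being 970 CPM over the 16 and 33 CPM over the remaining 9. Carrying cells were found in both parts, 5 of the 16 and 3 of the 9 at 10 CPM or more, against 6 of 59 P cells.

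The Cacna2d2 cells of both groups often carried Gad1. At 10 CPM or more, Gad1 was present in 13 of the 25 F and 8 of the 59 P cells. It was present in 6 of the 8 F cells with Cacna2d2, all but F14 and F22, where its count was 0, and in 4 of the 6 P cells with Cacna2d2, namely P3, P22, P25 and P67. P3 and P67 are 2 of the 7 P cells with more GABAergic than glutamatergic markers. Slc17a7 was present in 5 of those 6 P cells and in none of the 8 F cells. Of the 22 P cells with Cacna2d1 at 10 CPM, 2 had Gad1 and 16 had Slc17a7. Gad1 was not particular to Cacna2d2 cells, being present in 5 of 6 F and 4 of 29 P cells with Cacnb4. With Cacna2d3 the F and P numbers were 2 of 2 and 5 of 15, and with Cacnb1 2 of 4 and 2 of 2. With Cacnb3 they were 1 of 1 and 3 of 6, with Cacnb2 1 of 1 and 0 of 6. Without the 10 cells whose markers go against their letter, the count of subunits at least 2-fold lower in F was 4 in place of 5. Cacnb4 was the subunit that changed, with a log2 fold of -0.94 in place of -1.13. Of all measured genes 46.4% were at least 2-fold lower in that setting, so the count is not read as a result about the family.

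Cacna2d3 encodes a subunit studied in hearing, startle and pain, and it is the longest of these genes on the genome (chromosome 14, 28904943 to 29721864, minus strand). Its lowest, median and highest values over F cells were 0, 0 and 360 CPM, and over P cells 0, 0 and 1027 CPM. In F cells it was carried by F24 at 360 and F5 at 202 CPM, and the other F cells with a count, F13 and F2, held 1 each. In P cells 15 of 59 reached 10 CPM, led by P26 at 1027, P34 at 686, P39 at 552 and P5 at 328 CPM. Both F values lie inside the range of the P cells. Means were 22.7 CPM (SD 81.1) and 60.5 CPM (SD 183), a log2 fold of -1.38. It was -2.68 without F24 and -0.92, under 2-fold, without P26. Over all libraries the ratio of pooled counts, F over P, was 0.312 (0.292 to 0.333).

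Cacna2d4 encodes the subunit of photoreceptor terminals and was scarce in these neurons (chromosome 6, 119236526 to 119352407, plus strand). With a median of 0 in both groups, it ranged from 0 to 1.19 CPM over F cells and from 0 to 29.2 CPM over P cells. It was found in 5 F and 4 P cells, and 8 of these 9 held 1 to 4 counts. P2 held 322 of the 325 counts of P cells, and the highest CPM, in P45, was 1 count in a library of 34239. Means were 0.112 CPM (SD 0.299) and 0.841 CPM (SD 4.56), a log2 fold of -0.73 that became -0.28 without P45. It passed 2-fold with pooled counts (-1.15), with totals without the 20 highest genes (-1.07) and in the older batch (-2.09). Each mean rests on a handful of counts outside P2.

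Cacna2d1 and Cacna2d3 were the alpha2delta pair found together in the largest number of P cells: 10 of the 15 P cells with Cacna2d3 at 10 CPM also had Cacna2d1, which 22 of 59 had. Their promoters are shown for that reason, as the 250 bases before each RefSeq start on GRCm38.p6, in the direction of the gene (chr5:15934441-15934690, plus strand, and chr14:29721865-29722114, minus strand). Neither window overlaps a GENCODE exon, and capitals mark the GC box GGGCGG on either strand.
Cacna2d1: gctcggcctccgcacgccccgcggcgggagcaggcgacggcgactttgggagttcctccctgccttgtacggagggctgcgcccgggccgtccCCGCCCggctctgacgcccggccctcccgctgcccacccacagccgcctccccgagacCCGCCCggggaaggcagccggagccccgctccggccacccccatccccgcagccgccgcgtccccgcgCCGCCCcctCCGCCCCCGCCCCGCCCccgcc
Cacna2d3: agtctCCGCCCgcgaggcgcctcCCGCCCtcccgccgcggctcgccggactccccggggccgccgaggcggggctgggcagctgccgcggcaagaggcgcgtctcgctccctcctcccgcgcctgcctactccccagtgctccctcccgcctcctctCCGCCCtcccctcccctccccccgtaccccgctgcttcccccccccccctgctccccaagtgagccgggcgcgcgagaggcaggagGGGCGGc
Both windows are CpG rich: 82.4% G or C with 36 CpG and 6 GC boxes, some overlapping, for Cacna2d1, and 80.0% with 30 CpG and 4 GC boxes for Cacna2d3. Over 32817 RefSeq windows of the same length the medians were 52.4% and 6 CpG, and 32.7% held a GC box. The TATA box TATAAA, in 12.4% of all windows on either strand, is in neither. The E-box CANNTG, in 66.2% of all windows, occurs 2 times in the Cacna2d3 window and not in that of Cacna2d1. High G or C content was not particular to this pair. Windows were available for 7 of the 8 subunits, 12 windows in all. A window of Cacnb4 held 79.6% G or C, 37 CpG and 6 GC boxes, and that of Cacna2d2 74.4%, 34 CpG and 1 GC box. The lowest share was in a window of Cacnb2, at 46.0% with 3 CpG and 0 GC boxes. These motifs are matches of letters, not shown sites.

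Among the beta subunits, Cacnb4 was the one most widely carried. It encodes the subunit lost in the lethargic mouse, which has ataxia and seizures, and lies on chromosome 2 (52428320 to 52676831, minus strand). F cells ran from 0 through a median of 0 to 4102 CPM, and P cells from 0 through a median of 8.09 to 6618 CPM. The F cells at 10 CPM or more were F30 at 4102, F5 at 588, F6 at 422, F1 at 84.9, F2 at 48.2 and F22 at 10.6 CPM. Of the P cells 29 of 59 reached 10 CPM, led by P55 at 6618, P66 at 6190, P73 at 3212 and P57 at 2827 CPM. The ranges overlap throughout. Means were 211 CPM (SD 823) and 461 CPM (SD 1275), a log2 fold of -1.13, with 77.9% of the F sum in F30. Without F30 it was -3.22. It fell under 2-fold without any 1 of 4 P cells, to -0.75 without P55, -0.78 without P66, -0.97 without P73 and -0.99 without P57. It turned to 0.34 without the 16 F libraries: 1 of the 16 and 5 of the other 9 F cells had it at 10 CPM, with means of 1.29 and 583 CPM. F30 is among those 9. In the older batch, which holds none of the 16 libraries and not F30, the log2 fold was -0.45.

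Cacnb1, the beta subunit of skeletal muscle that is also made in brain, was low everywhere (chromosome 11, 98001508 to 98023034, minus strand). F cells ran from 0 to 31.9 CPM and P cells from 0 to 28.7 CPM, with a median of 0 in both. The F cells at 10 CPM were F22 with 3 counts and F28, F21 and F26 with 1 count each, whereas the P cells were P25 with 315 and P22 with 218 counts. The same CPM thus stands for very different numbers of reads. Means were 5.22 CPM (SD 9.41) and 1.20 CPM (SD 5.07), a log2 fold of 1.5. Of the 10 F cells with a count, 9 are among the 16 libraries with shared reads. Without these 16 the log2 fold turned to -0.99, by pooled counts it was -1.37 and in the older batch -0.96. The ratio of pooled counts, F over P, was 0.179 (0.114 to 0.268), against the direction of the means.

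Cacnb2, the main beta subunit of heart muscle, was found in few cells (chromosome 2, 14603088 to 14987908, plus strand). Both medians were 0, and the highest F and P cells stood at 29.3 and 2278 CPM, the lowest at 0. The only F cell at 10 CPM was F5 at 29.3, and the P cells were P38 at 2278, P72 at 402, P1 at 306, P5 at 87.4, P19 at 21.4 and P65 at 17.4 CPM. Means were 1.18 CPM (SD 5.86) and 52.8 CPM (SD 302), a log2 fold of -4.63. It was -2.82 without P38, which held 73.1% of the P sum, and -5.74 without F5. None of the 16 F libraries with shared reads had a count of it.

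Cacnb3, a beta subunit of brain and smooth muscle, was found in many cells at a low level (chromosome 15, 98630840 to 98644529, plus strand). F cells ran from 0 to 42.1 CPM and P cells from 0 to 1133 CPM, with a median of 0 in both. Of its 31 carrying cells, 19 held 1 to 4 counts. P42 at 1133 CPM stood far above the next P cells, P61 at 63.6 and P66 at 44.8, and F5 at 42.1 was the only F cell above 10 CPM. Means were 1.92 CPM (SD 8.40) and 22.8 CPM (SD 147), a log2 fold of -3.03. Without P42 it was -0.68, under 2-fold, and without F5 it was -4.26. The 2-fold difference of Cacnb3 therefore rests on P42.

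**Figure D2:**
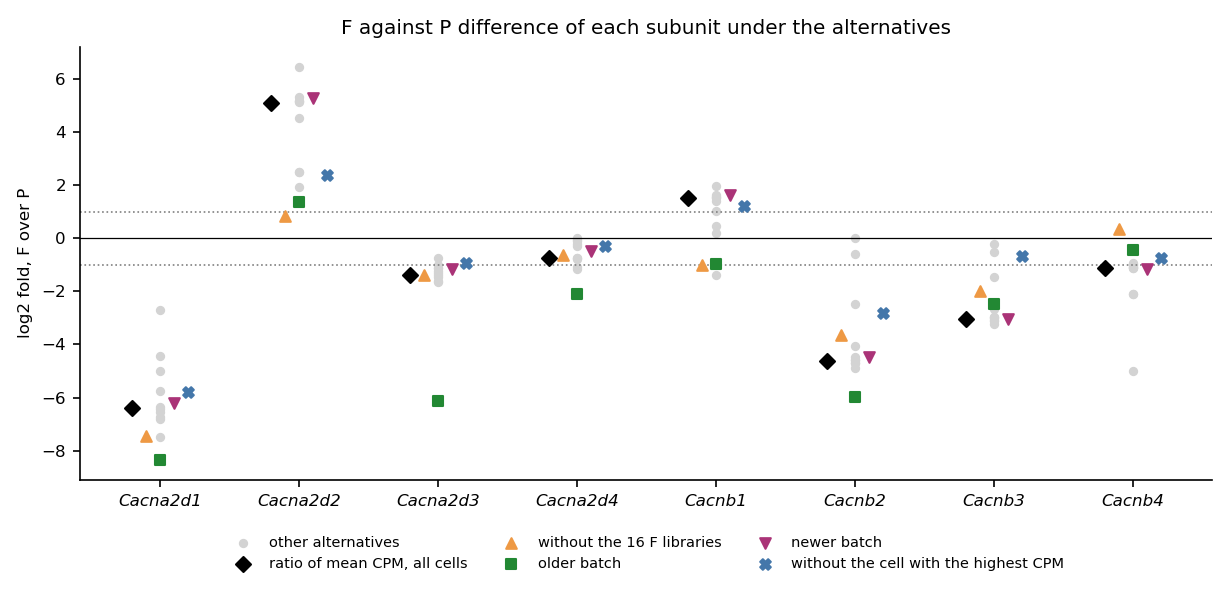
log2 fold of F over P for each subunit (vertical axis) from all cells (diamonds) and under the alternatives, with dotted lines at 2-fold. Cacna2d1 stays below -2 and Cacna2d2 above 0 in each, Cacnb1 and Cacnb4 cross 0, Cacnb2 and Cacnb3 come within 0.2 of 0 with trimmed means, and Cacna2d3 ranges from -6.15 to -0.74.

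Within the batches the means kept their order for most subunits. In the older batch (3 F and 6 P cells) Cacna2d1 averaged 0.0602 and 344 CPM in F and P cells, and in the newer batch 2.25 and 238 CPM. Cacna2d2 averaged 53.5 and 20.4 CPM in the older and 711 and 17.6 CPM in the newer batch. For Cacnb4 the means were 185 and 253 CPM, then 214 and 485 CPM. Cacnb1 had no count in the 3 older F cells and a mean of 0.944 CPM in the older P cells, against 5.93 and 1.22 CPM in the newer batch. For Cacna2d2 the ratio of pooled counts over both batches, F over P, was 2.61 (2.52 to 2.71).

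Shares of cells with at least 1 count differed most for the same alpha2delta genes, although the intervals of both still overlapped. Cacna2d1 was found in 7 of 25 F cells (28%, exact Clopper-Pearson 95% interval over cells 12.1 to 49.4%) and in 37 of 59 P cells (62.7%, 49.1 to 74.96%). Cacna2d2 was found in 11 of 25 (44%, 24.4 to 65.1%) and 10 of 59 (16.9%, 8.44 to 28.97%). Cacna2d3 was found in 16% and 30.5%, Cacna2d4 in 20% and 6.78%, Cacnb1 in 40% and 15.3%, Cacnb2 in 8% and 20.3%, Cacnb3 in 32% and 38.98%, and Cacnb4 in 44% and 64.4% of F and P cells. Cacna2d2, Cacna2d4 and Cacnb1 were thus found in a larger share of F cells, 3 of 8 subunits where 27.2% of measured genes were. Over the 9 F libraries without shared reads the set was another: Cacnb1 was found in 1 of 9 (11.1%), under its P share, while Cacnb2 in 2 (22.2%), Cacnb3 in 6 (66.7%) and Cacnb4 in 6 of 9 (66.7%) lay above theirs, as did Cacna2d2 in 5 (55.6%) and Cacna2d4 in 4 (44.4%). Cacna2d1 was found in 4 of these 9 (44.4%, interval 13.7 to 78.8%), nearer its P share, and in 3 of the 16 (18.75%). At 10 CPM it was found in 0 of the 9 and 3 of the 16. Because P libraries are deeper, cells were also thinned to 86539 counts, which left 22 F and 53 P cells, libraries with shared reads among them. Then Cacna2d1 was found in 2 of 22 F and 26 of 53 P cells (9.09%, interval 1.12 to 29.2%, and 49.1%, 35.1 to 63.2%, which do not overlap) and Cacna2d2 in 8 of 22 and 7 of 53. Cacnb1 was found in 4 of 22 and 1 of 53, and only it and Cacna2d2 remained more frequent in F, 2 of 8 where 38.7% of measured genes were. Among cells with at least 1000000 counts, Cacnb1 was found in 2 of 10 F and 8 of 41 P cells, Cacnb3 in 7 of 10 and 21 of 41, and Cacnb4 in 8 of 10 and 32 of 41. The intervals cover the draw of cells, not differences between animals.

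**Figure D3:**
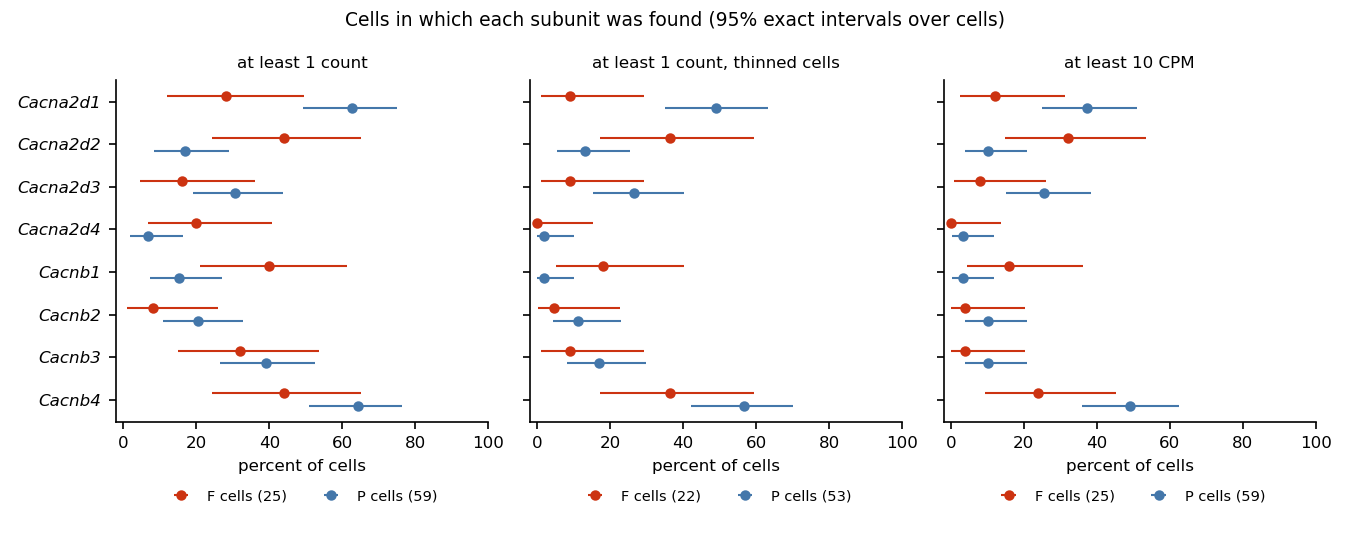
Percent of cells (horizontal axis) in which each subunit was found in F and P cells, with exact 95% intervals over cells, at 1 count, at 1 count after thinning, and at 10 CPM. Cacna2d1 lies lower in F cells in all 3 panels, at 28% against 62.7% in the first, and Cacna2d2 higher, at 44% against 16.9%. Only the thinned Cacna2d1 intervals do not overlap.

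To set levels of different genes side by side, mean CPM was divided by the length of the merged exons. Whether reads of these amplified libraries spread evenly along the exons was not tested, so the order depends on this choice of length. In F cells Cacna2d2 led with 79.6 CPM per kb, then Cacnb4 with 23.5, Cacna2d3 with 2.60, Cacnb1 with 1.15, Cacnb3 with 0.478, Cacna2d1 with 0.160, Cacnb2 with 0.0892 and Cacna2d4 with 0.0118 CPM per kb. In P cells Cacnb4 led with 51.5 CPM per kb, then Cacna2d1 with 20.05, Cacna2d3 with 6.94, Cacnb3 with 5.69, Cacnb2 with 3.99, Cacna2d2 with 2.25, Cacnb1 with 0.264 and Cacna2d4 with 0.0887 CPM per kb. The SD over cells is larger than the mean of each gene in each group. Differences between genes within the same cells were not tested, so the order of neighbours is given as a description only. The lead of Cacna2d2 in F cells rests on F22: without it Cacna2d2 was at 12.3 and Cacnb4 at 24.4 CPM per kb, and over the 9 F libraries without shared reads they were at 4.16 and 65.03 CPM per kb. Both of these Cacnb4 values still include F30, which held 77.9% of the Cacnb4 sum over all F cells. Which of these genes leads in F cells is therefore not settled.

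Cell by cell, 1 subunit of each family usually took nearly all the counts. Of 39 cells with an alpha2delta gene at 10 CPM or more, the leading gene held a median of 98.0% of the summed alpha2delta CPM, and at least 90% in 24 cells. Of 41 cells with a beta gene at that level, the leading gene held a median of 99.7% of the beta sum, and at least 90% in 32. At least 2 alpha2delta genes reached 10 CPM in 3 F and 13 P cells, and at least 2 beta genes in 2 F and 10 P cells. The leading gene differed by letter: in F cells it was Cacna2d2 in 6, Cacna2d1 in 2 and Cacna2d3 in 2 cells, with 15 cells having none at 10 CPM. In P cells it was Cacna2d1 in 18, Cacna2d3 in 7, Cacna2d2 in 3 and Cacna2d4 in 1 cell, with 30 having none. For the beta family Cacnb4 led in 27 P cells, Cacnb2 in 4 and Cacnb3 in 1. In F cells Cacnb4 led in 5, all outside the 16 libraries with shared reads, and Cacnb1 in 4, all inside them. Those Cacnb1 leads rest on 3 counts in F22 and 1 count each in F21, F26 and F28. The Cacna2d4 lead in P45 also rests on 1 count. Where a family has 1 count in a cell, the leading gene holds 100% by necessity. Dominance was not compared with that in other sets of genes. Per kb the leading gene changed in 1 alpha2delta and 1 beta cell, both P cells.

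**Figure D4:**
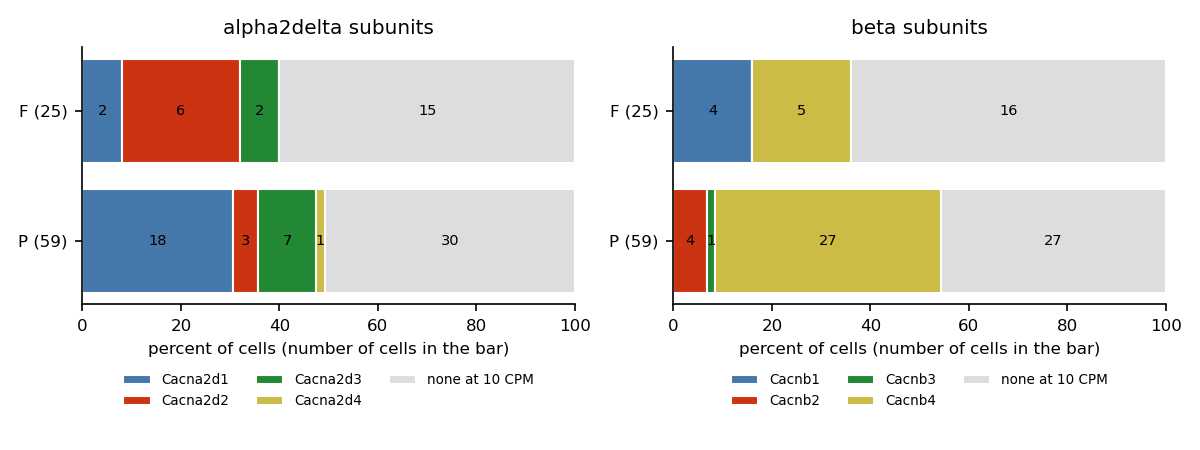
Percent of cells (horizontal axis) led by each alpha2delta gene (left) and beta gene (right) among F and P cells, with the number of cells in each bar. Cacna2d2 leads in 6 of 25 F cells and Cacna2d1 in 18 of 59 P cells, and cells with none at 10 CPM make up 15 and 30.

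Few F cells had both kinds of auxiliary subunit. At 10 CPM, an alpha2delta gene was present in 10 and a beta gene in 9 of 25 F cells, and both in 3 (12%, interval 2.55 to 31.2%). In P cells they were present in 29 and 32 of 59, and both in 20 (33.9%, interval 22.1 to 47.4%). The intervals overlap, and F libraries are shallower. Whether joint cells depart from what the separate shares give was not tested. A pore-forming gene as well was present in 2 F and 19 P cells, and neither family in 9 F and 18 P cells. In P cells Cacna2d1 and Cacnb4 were both present in 15 cells, of 22 and 29 with each, Cacna2d3 and Cacnb4 in 11, and Cacna2d2 and Cacna2d3 in 5, of 6 with Cacna2d2. In F cells Cacna2d2 and Cacnb4 met in 3, of 8 and 6. F5 was the F cell with most members, with Cacnb2, Cacnb3 and Cacnb4 at 29.3, 42.1 and 588 CPM beside Cacna2d2 and Cacna2d3. After thinning, 12 of 22 F and 23 of 53 P cells had no alpha2delta count.

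**Figure D5:**
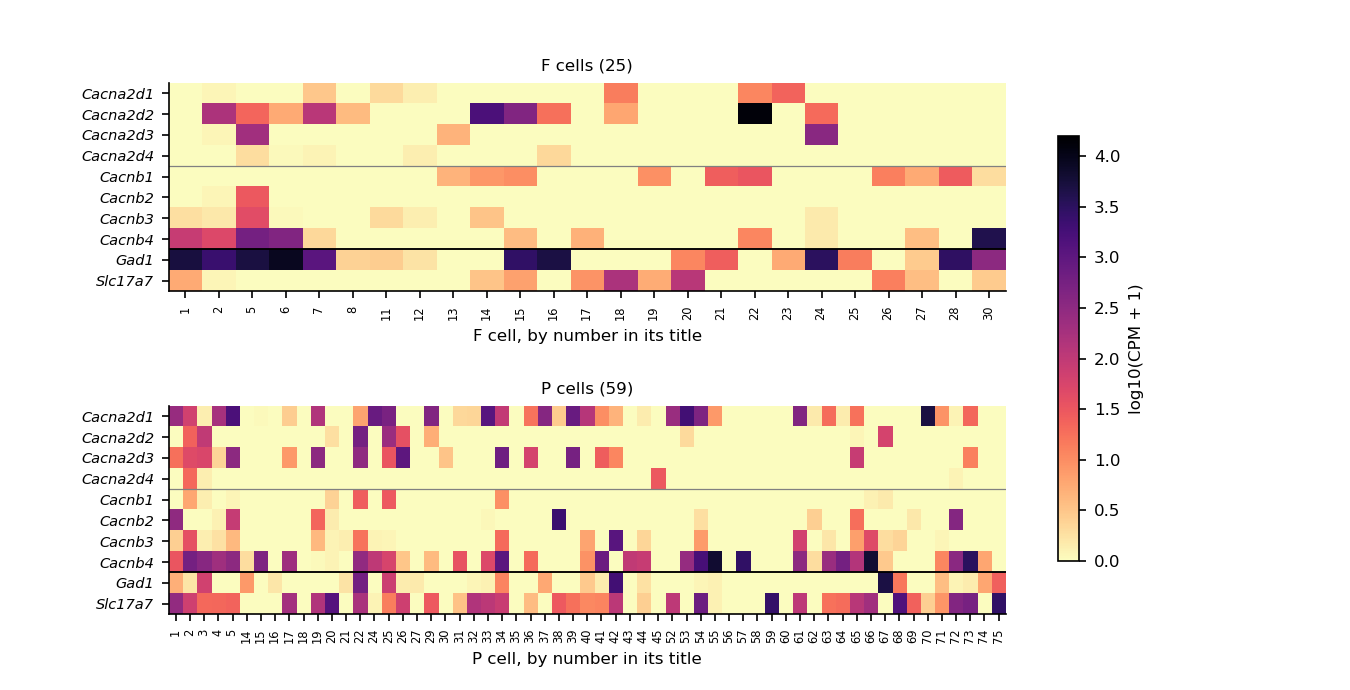
Level of the 8 subunits, Gad1 and Slc17a7 (rows) in every F cell (top) and P cell (bottom), in columns by the number in the title, as log10(CPM + 1) by colour. Cells with an alpha2delta gene at 10 CPM mostly show 1 strong row, Cacna2d2 in F14, F15 and F22 and Cacna2d1 in P53 and P70 among them, and Cacnb1 in F cells lies almost only between F13 and F28.

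The other genes of the channel complex were taken from lists. Over all measured genes 18.5% were at least 2-fold higher and 46.4% at least 2-fold lower in F cells, with a median log2 fold of -0.79. Beside these shares, the counts in this paragraph and the next are not read as results about the lists. Of 10 pore-forming genes 8 were measured; 0 were at least 2-fold higher and 4 at least 2-fold lower in F cells, with a median log2 fold of -0.98. The presynaptic P/Q-type gene Cacna1a had means of 57.2 and 234 CPM in F and P cells, a log2 fold of -2.01, which was -0.93 without the 16 F libraries. Without P24 it was -1.33. The N-type gene Cacna1b had a log2 fold of -2.42, at 0.286 and 5.90 CPM, or -1.02 without P37, which held 73.1% of its P sum. Among T-type genes, Cacna1h had a log2 fold of -5.72, at 0.0930 and 56.4 CPM, and Cacna1g -1.17, at 41.9 and 95.7 CPM, or -0.81 without P53 and -2.26 without the 16 libraries. Cacna1i, also T-type, had -0.15 with all cells and -1.07 without the 16 libraries. The L-type genes Cacna1c and Cacna1d had log2 folds of -0.79 and 0.14, and the R-type gene Cacna1e 0.0027, at 0.970 and 0.966 CPM. Cacna1f and Cacna1s, of retina and skeletal muscle, had counts in 7 and 4 cells and were not measured.

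Of 8 gamma subunits and related AMPA receptor regulators 3 were measured, 0 higher and 2 lower, with a median of -2.73: Cacng2, which is stargazin, at 20.5 and 141 CPM (log2 fold -2.73, or -2.09 without P67), and Cacng3 at 4.23 and 41.003 CPM (-3.00, or -1.89 without P70 and -1.73 without the 16 libraries). Of 9 partners and relatives of the alpha2delta family 7 were measured, 2 higher and 1 lower, with a median of 0.26. Thbs1, a thrombospondin, had 18 counts in F and 39 in P cells and a log2 fold of 2.26, which was -0.55 without the 16 libraries and 0.99 without F22. Thbs3, another thrombospondin, had 2 counts in F and 2500 in P cells, a log2 fold of -3.60, or -1.73 without P39, which held 78.9% of its P sum. Cachd1, a relative of the family, had -0.20. Of 12 beta and channel partners 4 were measured, 1 higher and 0 lower, with a median of 0.59. That gene was Rims2, an active-zone scaffold, at 192 and 74.4 CPM and a log2 fold of 1.36. It was 0.35 without F19 and -0.81 without the 16 libraries.

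Genes whose CPM ranked most like that of a subunit over the 84 cells were listed for the 5 subunits with a count in at least 21 cells, among 5337 such genes. Spearman's rho is given as a description only, since cells share depth and libraries and the subunits' own rho with the cell total ran from 0.20 (Cacna2d2) to 0.52 (Cacna2d1). Cacna2d1 was most like Pde1a, a calmodulin-dependent phosphodiesterase (0.64), X3110035E14Rik as the table spells it (0.60) and Elmo1 (0.58). Cacna2d2 was most like Arvcf (0.52), Ndel1 (0.51) and Crtc3 (0.50), and Cacna2d3 most like Pnck (0.69), Ranbp3 (0.66) and Tnks2 (0.62). Cacnb3 was most like Fam216a (0.66), Slitrk1 (0.63) and Atp6v0b (0.63). Cacnb4 was most like Lrrc4c, a postsynaptic adhesion protein (0.66), the muscarinic receptor Chrm1 (0.65) and Ldha, lactate dehydrogenase (0.64). Among these 5 subunits rho ran from -0.0063 for Cacna2d1 with Cacna2d2 to 0.38 for Cacna2d3 with Cacnb3.

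Some reads could belong to neighbouring genes, since the strand setting of the counting is not given. On the opposite strand, exons of A430018G15Rik overlap those of Cacnb4 over 1433 bases, Gm10849, Gm13269 and Gm10848 overlap Cacnb2 over 618, 239 and 111 bases, Gm17141 overlaps Cacna2d2 over 82 and Gm11629 overlaps Cacnb1 over 80 bases. Lrtm1 and Lrtm2 lie within introns of Cacna2d3 and Cacna2d4 on the opposite strand and share no exonic base with them.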

How the data were processed

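The deposited table holds whole-number read counts per gene symbol, made by the authors from single-neuron libraries (TruSeq Stranded kit, per the labels' protocols). The submitters' processing notes name bcl2fastq 1.8.4 (older batch) or 2.17 (newer batch), STAR 2.4.0 and mm10. How reads were assigned to genes, and with which strand setting, is not given in the sources used here. Groups came from the titles; with no animal named, each is 1 sample and nothing was tested.

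Each count was scaled to a cell total of 1000000 (CPM) and averaged with equal weight per cell. A gene was measured with a count in at least 8 cells and called at a 2-fold difference with a pseudocount of 1 CPM. Intervals are 95%: Clopper-Pearson over cells, exact conditional for pooled ratios. For 0 cells the upper Clopper-Pearson limit is 13.7% of 25 F or 6.06% of 59 P cells. A limit of 3 divided by the number of cells would give 12% and 5.08%. Cells were also thinned to 86539 counts, the 10th percentile of totals, leaving out 3 F and 6 P cells. Depths of 19802 to 16251918 counts set the precision: 1 count in a library under 100000 counts exceeds 10 CPM, so low levels are imprecise there. Alternatives were pooled counts, trimmed means, mean log2(CPM + 1), TMMwsp factors (edgeR 4.0.16, R 4.3.3), totals without the 20 highest genes, a pseudocount of 10 CPM, other filters, thinning, each batch, and leaving out libraries. The F11 and F12 libraries were also averaged.

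Named were the 8 subunits, all pore-forming genes, up to 2 genes per direction of each other list, Gad1, Slc17a7, Cachd1 and the 3 genes most like each subunit found in at least 21 cells; individual cells, and Cachd1, were named after their values were seen. The lists were pore-forming, gamma, alpha2delta partner and beta partner genes, and GABAergic, glutamatergic, astrocyte, oligodendrocyte, microglial and endothelial markers. Of the GABAergic list 11 of 11 measured markers were at least 2-fold higher in F, and of the glutamatergic list 9 of 10 lower. Members and lists were chosen with earlier results of these data known. The fold script was tested on simulated data, with changes put only into genes at higher mean levels and folds centred on their median. That test does not cover subunits at low levels, and the folds given here are not centred. Python 3.11.15, numpy 2.4.6, pandas 2.3.3, scipy 1.17.1 and matplotlib 3.10.9 were used. Protein sequences were not compared. A gene that the naming rule gives is not reported here.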

Additional observations from a re-analysis of the deposited data

How the results depend on the processing

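Of the 8 subunits, 2 were at least 2-fold higher in F cells. The number was 1 with pooled counts, 1 with a pseudocount of 10 CPM, 1 without libraries under 100000 counts, 1 in the older batch, 1 with a count required in at least 21 cells (where 5 subunits are left) and 0 without the 16 F libraries with shared reads. It was 2 to 2 when each cell was left out in turn. The number at least 2-fold lower was 5. It was 7 with pooled counts, 6 with totals without the 20 highest genes, 3 with trimmed means and 3 with the mean of log2(CPM + 1). With TMMwsp factors, without libraries under 100000 counts and without the 16 libraries it was 4. It was 2 without the cell with the highest CPM of each subunit (chosen after seeing the data), and 4 to 5 when each cell was left out. The number of subunits found in a larger share of F cells was 3. It became 1 at a minimum of 5 counts, 5 among cells with at least 1000000 counts and 5 without the 16 libraries, where Cacnb1 was no longer among them. The share of all measured genes was taken only at 1 count (27.2%) and after thinning (38.7%), and depth differs between these settings. The changes in this number are therefore not read as a result about the subunits. The log2 fold of Cacnb1 turned to -1.37 with pooled counts, -0.96 in the older batch and -0.99 without the 16 libraries, and that of Cacnb4 to 0.34 without them. Cacna2d1, Cacna2d2, Cacna2d3, Cacnb2 and Cacnb3 kept their sign in the 14 alternatives tried, although Cacnb2 came to -0.01 and Cacnb3 to -0.20 with trimmed means. With 1 cell left out, log2 folds ran from -6.88 to -5.80 for Cacna2d1, 2.39 to 6.14 for Cacna2d2, -2.68 to -0.92 for Cacna2d3, -0.79 to -0.28 for Cacna2d4, 1.22 to 1.85 for Cacnb1, -5.74 to -2.82 for Cacnb2, -4.26 to -0.68 for Cacnb3 and -3.22 to -0.75 for Cacnb4. Over all measured genes 2100 were at least 2-fold higher and 5254 lower. These were 470 and 1517 with trimmed means, 335 and 1109 with mean log2(CPM + 1) and 1357 and 3675 with a pseudocount of 10 CPM. They were 2084 and 5256 with pooled counts and 2025 and 5250 without libraries under 100000 counts. In the older batch they were 2425 and 4644, and without the 16 libraries 2188 and 5166. TMMwsp factors gave 2363 and 5352, and totals without the 20 highest genes 2209 and 5308. Beside these, the numbers of subunits are not read as a result about the family. The cause of the shifts between settings was not tested. No paired analysis was possible because the results come from no test and the numbers in the titles only name cells. The planned comparison of protein sequences was not run. Most carrying cells of Cacna2d4, Cacnb1 and Cacnb3 held 1 to 4 counts, deep libraries among them, so their levels are imprecise.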

Other observations

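Over all 8 subunits there were 209 pairs of a cell and a gene with a count, and 75 of them (35.9%) rested on 1 to 4 counts, against 43.8% over all measured genes. The share was 8 of 9 cells for Cacna2d4, 12 of 19 for Cacnb1, 19 of 31 for Cacnb3 and 3 of 22 for Cacna2d3. No count of any subunit was found in 2 F cells, with 94372 and 154779 counts, and in 9 P cells with 19802 to 8541530 counts, of which 2 held at least 1000000. The deepest of these was P16.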
